A study of Homo sapiens with 6 samples.

Results

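The gene set described here covers targets of the tumour suppressor p53 and the DNA damage response. It holds 9 genes, CDKN1A, MDM2, GADD45A, GADD45B, BTG2, BBC3, BAX, SESN1 and SESN2. They were listed by name under this heading, and all 9 were found, each in 1 of the 117001 loci of the series table and as 9 of the 24166 genes of the transcript assemblies. The cells were HEK293, a human embryonic kidney line, kept at 37°C. For heat shock, a tube of cells taken at passage was held for 30 minutes in water at 45°C, and control cells were left untreated. The authors describe the sequenced transcripts as those found 30 minutes after heat shock. RNA was depleted of ribosomal RNA and sequenced from 3 control and 3 heat shock libraries. The sources used here do not say whether replicates came from separate cultures, so the spread between them, on which every p-value below rests, may be partly technical.

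When DNA is damaged, checkpoint kinases phosphorylate p53, which then escapes its ubiquitin ligase MDM2, binds DNA as a tetramer and raises transcription of genes that stop the cell cycle, repair DNA or start apoptosis. MDM2 is itself a p53 target, which closes a feedback loop. HEK293 carries early genes of adenovirus whose products bind p53 and hold back its activity, so the line is a limited model of p53 signalling.

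The DNA that p53 binds is 2 copies of a 10-base motif, and sequences close to this consensus near the starts of the members are shown as background. The p53 consensus, with no spacer between copies, was searched on both strands in 3000 bases either side of each annotated start in GRCh37 (hg19). Best matches of the members other than SESN2, with an equal match of SESN1 left out, follow, 5′ to 3′ on the strand of the gene, with the 4 core bases of each copy in capitals.
CDKN1A, upstream match: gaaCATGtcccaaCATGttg
CDKN1A, second match: gaaGAAGactgggCATGtct
MDM2: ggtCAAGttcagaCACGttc
GADD45A: gaaCATGtctaagCATGctg
GADD45B: agaCTTGgttgaaCTTGgtt
BTG2: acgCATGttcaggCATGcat
BBC3: gggTCTGcccaggCATGtcc
BAX: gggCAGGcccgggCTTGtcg
SESN1: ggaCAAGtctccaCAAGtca

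The GADD45A sequence, at chr1:68152458-68152477 on the plus strand, lay within an intron, 1608 bases past the gene's start, and differed from the consensus at 1 base. Matches with at most 1 mismatch occurred near 1.32% of 21187 genes, and GADD45A was the member among them. The other genes shown, except SESN1, differed at 2 bases. Both CDKN1A sequences were on the plus strand, at chr6:36644226-36644245, which spans the most upstream annotated start and is centred 32, 2220 and 2252 bases before the 3 others, and at chr6:36645108-36645127. The MDM2 match, chr12:69202703-69202722 on the plus strand, was in intron 1, 742 bases past the annotated start, and the BAX match, chr19:49458470-49458489 on the plus strand, was also in intron 1, 362 bases past its start. The BTG2 match, chr1:203272770-203272789 on the plus strand, lay 1884 bases upstream. The BBC3 match, chr19:47735825-47735844 on the minus strand, overlapped an exon of 3 of the 4 annotated transcripts, and the GADD45B match, chr19:2478019-2478038 on the plus strand, was exonic. In all, 7 of the 9 members had a match with at most 2 mismatches, beside 15.5% of 21187 genes. The members were listed under p53 targets and DNA damage response, so this contrast is no independent support for the set. The best matches of SESN1 and of SESN2 had 3 mismatches, which 75.8% of genes also reached. The SESN1 match shown was at chr6:109330221-109330240 and the equal one left out at chr6:109413095-109413114, both on the minus strand. A match is a run of letters and not evidence of binding in these cells.

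The deposited levels were FPKM, fragments per kilobase of transcript scaled to the mapped fragments of the library, estimated by Cufflinks for each transcript of each library, and the level of a gene is the sum over its transcripts. No read counts were used here, and depth is known only in relative terms, from the ratio of Cufflinks coverage to FPKM, which was between 1 and 2.03 times that of control 3. Libraries differed in a way that crossed the groups. Single-exon transcripts without a strand numbered 141632, 194489 and 45600 in controls 1 to 3 and 17304, 30334 and 151889 in heat shock 1 to 3, so heat shock 3 resembled controls 1 and 2. A factor common to 998 genes above 10 FPKM in all 6 libraries, computed as a median of ratios and containing none of the 9 members, was 0.937, 0.434 and 0.956 in the controls and 2.13, 2.31 and 0.487 in the heat shock libraries. The results of the members are therefore given as deposited and after division by this common factor. Those of other genes are as deposited unless the common factor is named. The labels were checked on genes induced by heat. DNAJB1, a co-chaperone, had 7.32, 4.84 and 9.18 FPKM in the controls and 121, 116 and 34.0 FPKM in the heat shock libraries. HSPA1B, which codes for an inducible HSP70, had 8.63, 6.59 and 9.55 FPKM against 86.5, 99.9 and 22.9 FPKM, and its near-identical copy HSPA1A, with which it shares reads, had 5.00, 3.39 and 4.82 against 30.0, 31.3 and 6.88 FPKM. All 3 heat shock libraries lay above all controls for these genes, which are the 3 of 11 tested heat shock genes with this order as deposited. With the common factor it was 6 of 11. Of all tested genes, 3.75% had this order as deposited and 1.77% with the common factor. A further heat shock gene, HSPA6, named after its values were seen, was too low to be tested. It had 0.311, 0.425 and 0.277 FPKM in the controls and 0.307, 0.337 and 0.710 FPKM in the heat shock libraries. The 7 genes known to be expressed in HEK293 (VIM, KRT8, KRT18, PAX2, CDH2, NEFM and NEFL) were above 0 in every library. The 9 markers of blood, liver, muscle and endothelial cells had summed levels from 5.43 to 11.98 FPKM in the controls. After heat shock their sums were from 5.25 to 12.6 FPKM. CD3E, PTPRC and ALB were at or near 0, but 3 of the 9 markers had a mean of at least 1 FPKM. The highest value of any marker in any library was 7.39 FPKM.

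No difference between heat shock and control was detected in any of the 9 members. By limma on log2(FPKM + 1), 0 of 9 were called, which took an adjusted p under 0.05 with a difference over 2-fold, and 0 of 9 passed an unadjusted p under 0.05. Of all 13074 genes tested, 0.0153% were called higher and 0.00765% lower, 0.0229% in all, and at an unadjusted p under 0.05 the shares were 2.06% higher and 1.64% lower. In 0 of 9 members did the 3 heat shock libraries lie apart from the 3 controls, beside 5.99% of all genes (3.75% higher and 2.24% lower). The differences, heat shock minus control on this log2 scale, had a median of 0.72 over the members and 0.45 over all genes, and 8 of 9 members were above 0, beside 73.0% of all genes. All 9 members passed the minimum mean of 1 FPKM. In bulk RNA such as this, fewer cells with a transcript and less of it per cell cannot be told apart.

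**Figure D1:**
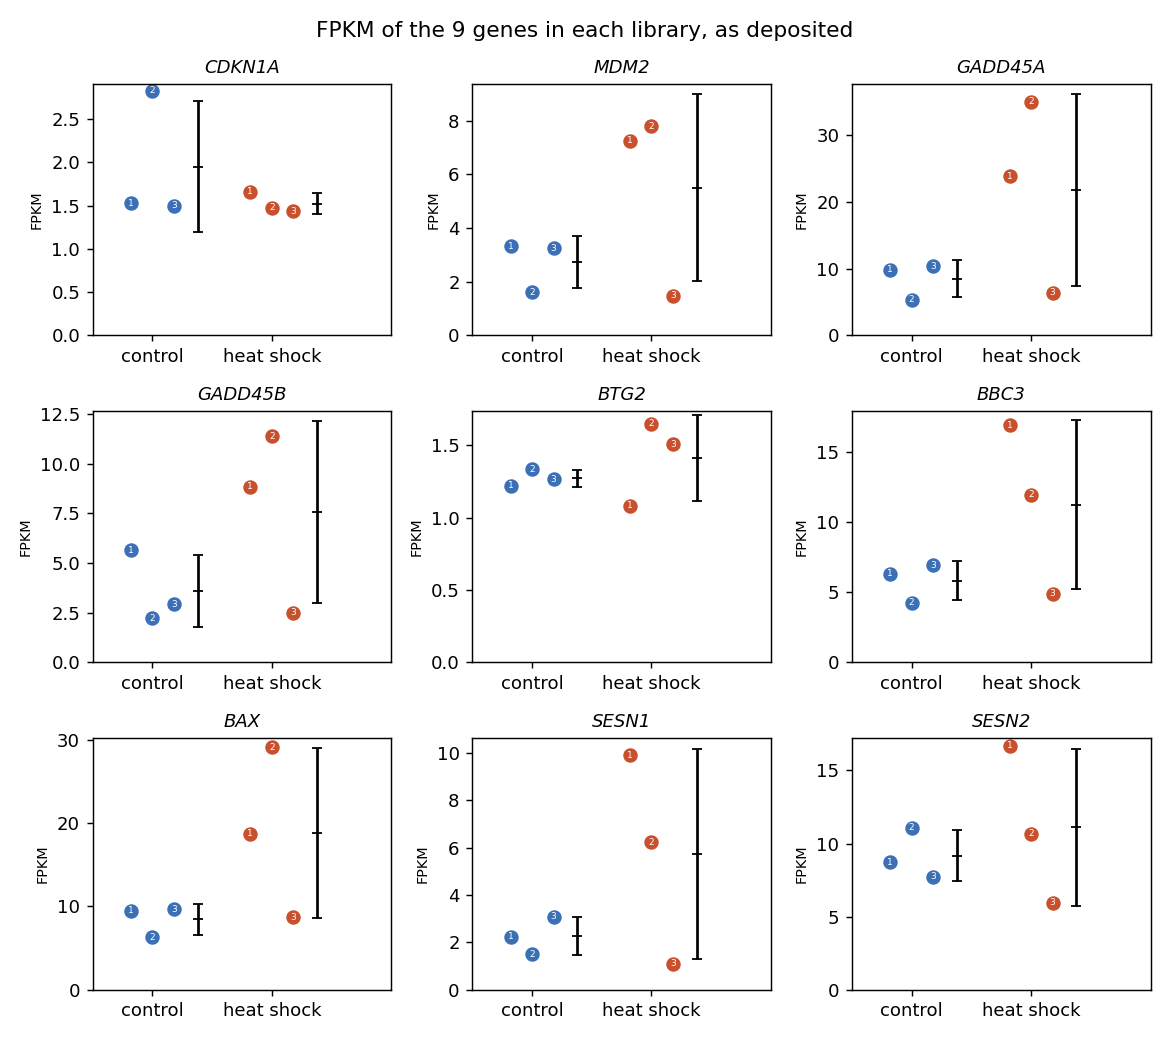
FPKM (vertical axes, linear, from 0) of the 9 genes in the 3 control (blue) and 3 heat shock (red) libraries, numbered by replicate, with the mean and SD of each group in black. For 6 genes heat shock 1 and 2 lie above all controls, and heat shock 3 lies within or below the control range in 8 of the 9 genes.

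Among the genes that halt the cell cycle, CDKN1A, at chr6:36644237-36655116, codes for the cyclin-dependent kinase inhibitor p21 and is the best known p53 target. It had 1.52, 2.83 and 1.50 FPKM in the controls and 1.66, 1.48 and 1.44 FPKM in the heat shock libraries. The groups overlapped, and control 2 was the highest library. Heat shock minus control was -0.20 ± 0.44 on the log2 scale (SE, n = 3 and 3), with an adjusted p of 0.808 by limma. BTG2, an antiproliferative gene at chr1:203274664-203278729, had 1.22, 1.33 and 1.26 FPKM against 1.08, 1.65 and 1.51 FPKM. Its lowest and its highest library were both from heat shock, and the difference was 0.079 ± 0.44 (log2, SE, n = 3 and 3; limma adjusted p 0.921). These were the members with the lowest levels, and both stood below the median difference of all genes, by 0.64 for CDKN1A and by 0.37 for BTG2 on the log2 scale.

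GADD45A and GADD45B code for small acidic proteins that bind partners in growth arrest, repair and stress kinase signalling. GADD45A, at chr1:68150860-68154021, had 9.86, 5.30 and 10.3 FPKM in the controls and 23.8, 35.0 and 6.41 FPKM in the heat shock libraries. Heat shock 1 and 2 were more than 2-fold above every control, and heat shock 3 lay between the controls. The difference was 1.03 ± 0.78 (log2, SE, n = 3 and 3; limma adjusted p 0.709), above the all-gene median by 0.58. GADD45B, at chr19:2476123-2478257, had 5.64, 2.23 and 2.94 FPKM against 8.83, 11.4 and 2.50 FPKM. Heat shock 1 and 2 were above every control, heat shock 1 by less than 2-fold over control 1, and heat shock 3 lay between the controls. The difference was 0.78 ± 0.61 (log2, SE, n = 3 and 3; limma adjusted p 0.709).

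MDM2, at chr12:69201971-69239320, codes for the ligase that marks p53 for degradation. It had 3.32, 1.60 and 3.24 FPKM in the controls and 7.25, 7.79 and 1.48 FPKM in the heat shock libraries. Heat shock 1 and 2 were above all controls and heat shock 3 was below all controls. Heat shock minus control was 0.64 ± 0.58 (log2, SE, n = 3 and 3; limma adjusted p 0.709).

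The apoptotic members are BAX, which permeabilises the mitochondrial outer membrane, and BBC3, the BH3-only protein PUMA, which releases BAX from its inhibitors. BAX, at chr19:49458117-49465055, had 9.47, 6.30 and 9.64 FPKM in the controls and 18.8, 29.1 and 8.68 FPKM in the heat shock libraries, with heat shock 3 between the controls. The difference was 0.94 ± 0.71 (log2, SE, n = 3 and 3; limma adjusted p 0.709). BBC3, at chr19:47724079-47736023 on the minus strand, had 6.33, 4.27 and 6.95 FPKM against 16.9, 11.98 and 4.91 FPKM, a difference of 0.72 ± 0.65 (log2, SE, n = 3 and 3; limma adjusted p 0.709), again with heat shock 3 between the controls. The microRNA gene MIR3191 lies inside BBC3 on the opposite strand, and transcripts that Cufflinks grouped with both were counted to BBC3. Counted to neither, BBC3 differed by 2.18 ± 0.77 (log2, SE, n = 3 and 3; limma adjusted p 0.710), so its difference depended on this choice. It then passed an unadjusted p under 0.05 as higher, which 270 of the 13025 genes tested in that way did.

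The sestrins SESN1 and SESN2 restrain the growth kinase complex mTORC1 under stress. SESN1, at chr6:109307640-109415708 on the minus strand, had 2.23, 1.49 and 3.09 FPKM in the controls and 9.90, 6.23 and 1.09 FPKM in the heat shock libraries, a difference of 0.78 ± 0.61 (log2, SE, n = 3 and 3; limma adjusted p 0.709). SESN2, at chr1:28585963-28609002, had 8.72, 11.1 and 7.72 FPKM against 16.7, 10.7 and 5.96 FPKM, a difference of 0.16 ± 0.66 (log2, SE, n = 3 and 3; limma adjusted p 0.894). Heat shock 3 was the lowest library for both sestrins. The SESN2 value of control 2 depended on short assembled transcripts and was 3.88 FPKM when each transcript was weighted by its length. In the same way SESN1 in heat shock 1 went from 9.90 to 4.38 FPKM, with 9.002 FPKM on 1 single-exon transcript of 1234 bases, and BAX in heat shock 2 went from 29.1 to 17.3 FPKM. An exact two-sided permutation test gave p between 0.3 and 0.8 for the 9 members, where the smallest p that 3 libraries against 3 allow is 0.1.

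The arrangement of the libraries turned on heat shock 3, although no member was called with or without it. Without heat shock 3, the 2 remaining heat shock libraries lay above all controls in 6 of the 9 members (MDM2, GADD45A, GADD45B, BBC3, BAX and SESN1), but so they did in 57.2% of the 12923 genes then tested. The same 6 passed an unadjusted p under 0.05 as higher, which 40.8% of genes did, and each had an adjusted p of 0.0771 by limma, with log2 differences between 1.18 for BBC3 and 1.70 for GADD45A. Within the 3 libraries with few unstranded transcripts, control 3 and heat shock 1 and 2, all 9 members were higher in heat shock, with a median of 1.01 on the log2 scale, beside 71.9% of all genes and a median of 0.62. Within the other 3 libraries, controls 1 and 2 and heat shock 3, 2 of 9 (BTG2 and BAX) were higher, with a median of -0.35, beside 33.0% and a median of -0.20. The direction therefore did not hold within both sets, which hold too few libraries for a test. Whether the cells or the libraries set this split was not tested.

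After division by the common factor, the median difference of the members moved to -0.059 and that of all 13919 genes tested to -0.25, with 4 of 9 members above 0, beside 26.1% of all genes. Again 0 of 9 members were called, 0 of 9 passed an unadjusted p under 0.05 (0.697% of all genes were higher and 2.43% lower) and 0 of 9 had groups that did not overlap (6.98% of all genes, 1.77% higher and 5.21% lower). Relative to the median of all genes, 6 of 9 members were higher on either scale. They were MDM2, GADD45A, GADD45B, BBC3, BAX and SESN1, and the amounts on the common factor scale were between 0.16 for MDM2 and 0.46 for GADD45A. With transcripts weighted by length, 7 of 9 were above the all-gene median as deposited and 4 of 9 with the common factor. The 95% confidence intervals of the common factor differences, which take the factor as fixed, were widest for CDKN1A, from -2.15 to 0.73. They were narrowest for GADD45A, from -0.22 to 0.65 on the log2 scale. On the common factor scale, a 2-fold difference of GADD45A in either direction lay outside its interval, and a 2-fold lower level of CDKN1A did not. As deposited, the GADD45A interval ran from -0.64 to 2.71 and contained a 2-fold rise.

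**Figure D2:**
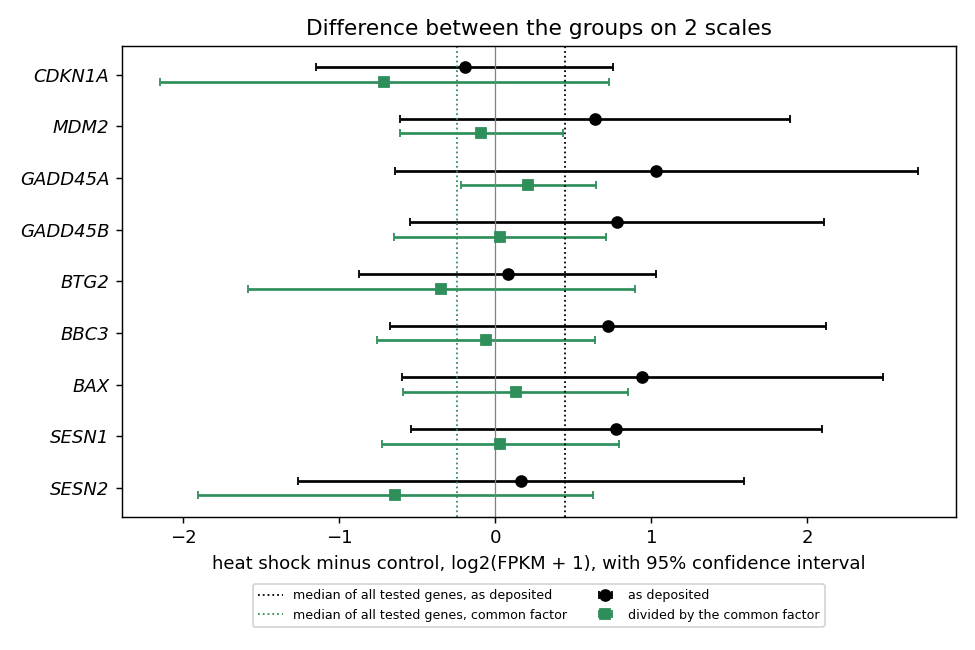
Heat shock minus control on the log2(FPKM + 1) scale (horizontal axis) for the 9 genes, with 95% confidence intervals from limma, as deposited (black circles) and divided by the common factor (green squares). Dotted lines mark the medians of all tested genes, 0.45 and -0.25, and every interval contains 0.

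The members differed in how closely they followed the common factor. Pearson's r of their log2 level with the log2 of the factor ran from 0.93 for BAX to 0.996 for MDM2, with GADD45A, GADD45B, BBC3 and SESN1 between. It was 0.60 for SESN2, -0.090 for BTG2 and -0.48 for CDKN1A. Over all 13074 genes the median r was 0.82, with quartiles of 0.066 and 0.96, so both behaviours were common. MDM2 became nearly even once divided by it, with 3.55, 3.70 and 3.39 in the controls and 3.40, 3.37 and 3.04 in the heat shock libraries, in FPKM divided by the factor. Its coefficient of variation over the 6 libraries was 67.0% as deposited and 6.45% after division, and 0.682% of the 9673 genes with mean levels in the range of the members varied less, their median being 50.3%. The heat shock minus control difference of MDM2 on this scale was -0.091 ± 0.21 (log2, SE, n = 3 and 3). GADD45A had 10.5, 12.2 and 10.8 in the controls and 11.2, 15.1 and 13.2 in the heat shock libraries on the same scale, a coefficient of variation of 14.4% and a difference of 0.21 ± 0.18 (log2, SE). GADD45B, BBC3, BAX and SESN1 had coefficients of variation between 21.3% and 28.7% after division. CDKN1A and BTG2 were the opposite: their coefficients of variation were 31.1% and 15.2% as deposited and 93.9% and 68.5% after division. Across libraries whose common factor differed more than 5-fold, BTG2 was thus nearly flat as deposited, and CDKN1A ranged from 1.44 to 2.83 FPKM with the highest value in control 2. After division heat shock 1 and 2 were the lowest libraries for both. SESN2 also varied more after division, 65.8% against 36.7%, with 25.6 in control 2. Of its 11.1 FPKM as deposited in control 2, however, 7.73 were on an assembled transcript of 498 bases. With transcripts weighted by length SESN2 had 8.80, 3.88 and 7.56 FPKM in the controls and 16.1, 10.7 and 4.65 FPKM in the heat shock libraries. Its r and its spread as given here therefore rest partly on that short transcript. Without heat shock 3, CDKN1A, BTG2 and SESN2 lay below all controls on the common factor scale, as did 44.3% of all genes.

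**Figure D3:**
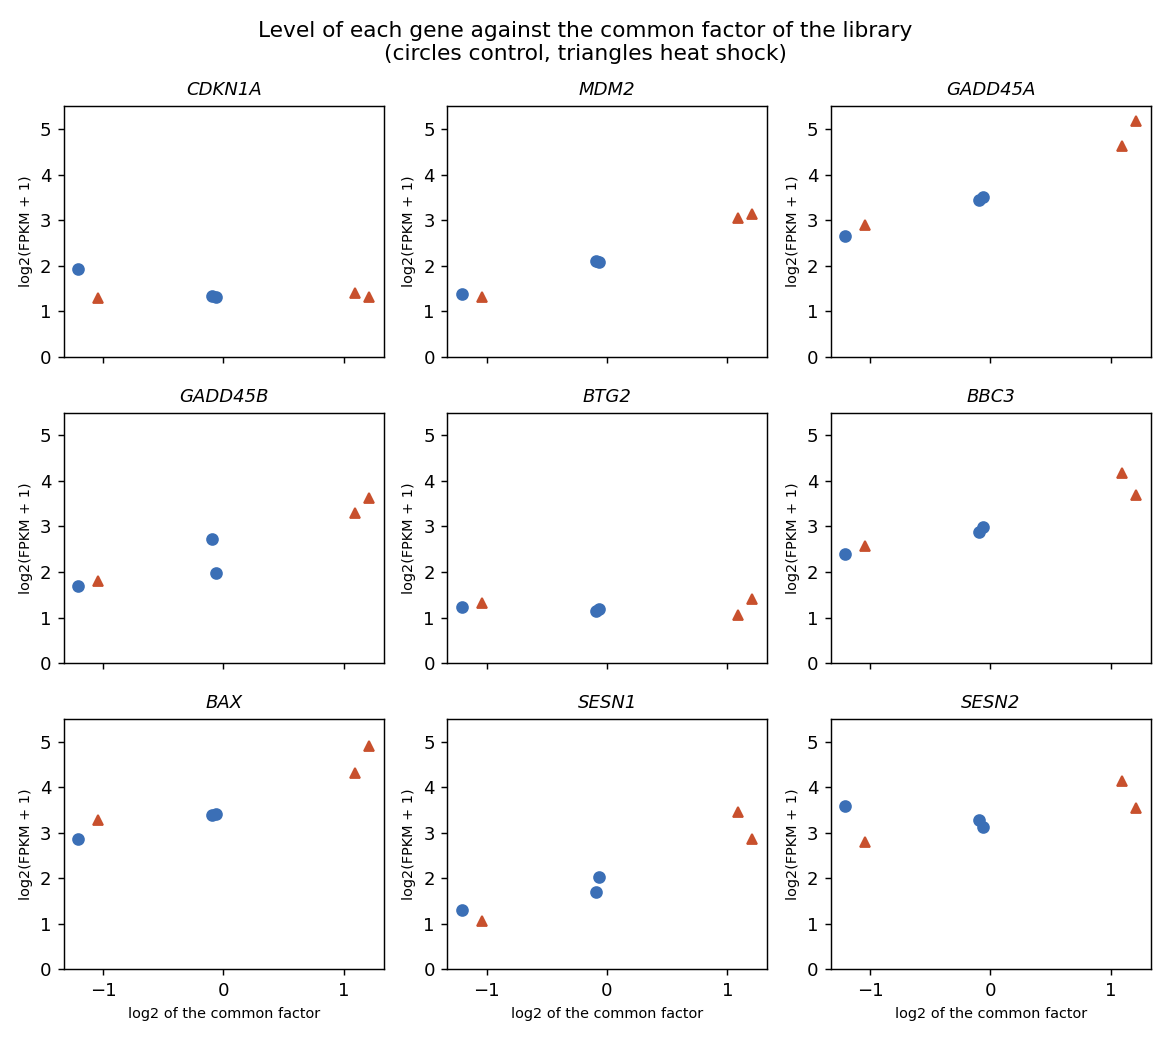
Level of each gene as log2(FPKM + 1) (vertical axes) against the log2 of the common factor of the library (horizontal axes) in the 3 control libraries (blue circles) and 3 heat shock libraries (red triangles). MDM2 and GADD45A climb with the factor in both groups along one line, while CDKN1A and BTG2 stay between 1 and 2.

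The transcripts behind these sums differed between libraries. All MDM2 in the 3 controls was on the 1 annotated transcript, NM_002392, at 3.32 FPKM (Cufflinks 95% interval 3.01 to 3.64), 1.60 FPKM (1.38 to 1.83) and 3.24 FPKM (2.80 to 3.68). In heat shock 2, an assembled transcript that began 307 bases into intron 1, which is 716 bases long, carried 2.92 FPKM (2.46 to 3.38), or 37.5% of the gene. In heat shock 3, another began 546 bases into intron 1 and carried 0.499 FPKM (0.319 to 0.680), or 33.8%. Both spliced from the same base, chr12:69202866, to the annotated second exon. MDM2 is known to have a second promoter in this intron that answers to p53, and 5 of the 36 MDM2 transcripts in GENCODE start in intron 1. The match to the p53 consensus shown above, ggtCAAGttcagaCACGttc, lay inside the first exon of the heat shock 2 transcript and upstream of that of heat shock 3. No control listed such a transcript and heat shock 1 did not either, but Cufflinks reports the transcripts it assembled, so an unlisted transcript is no measured absence, and 2 of 3 libraries against 0 of 3 is no test.

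**Figure D4:**
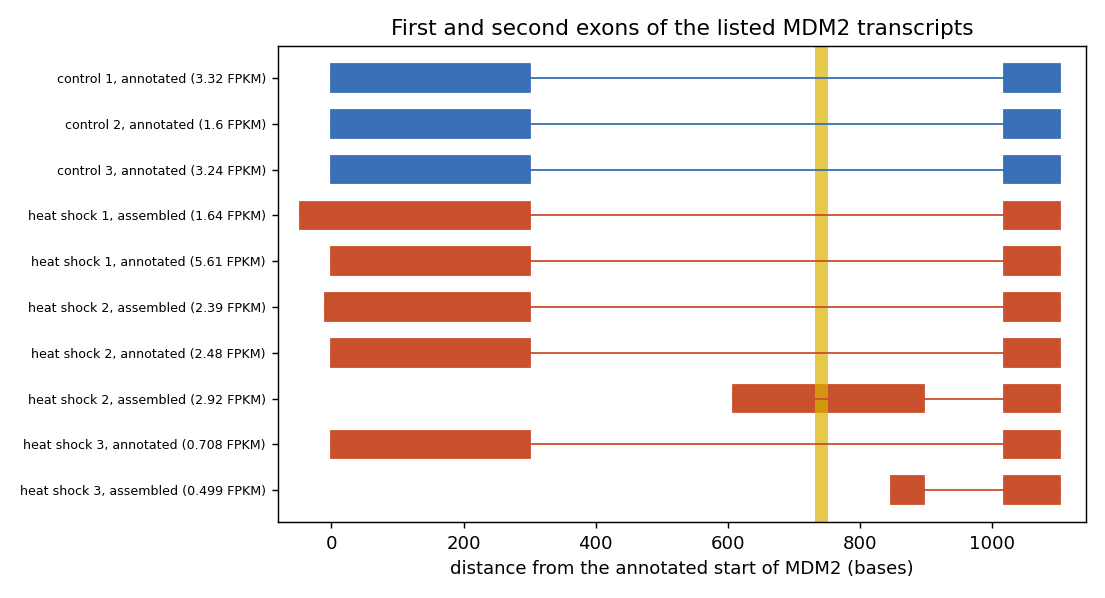
First and second exons (boxes) of the MDM2 transcripts listed in each library, by distance from the annotated start in bases, with the FPKM of each transcript. The yellow band is the p53 consensus match, and first exons inside intron 1 appear in heat shock 2 and 3; 1 further transcript of heat shock 3, which starts beyond the second exon, is not drawn.

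For CDKN1A, heat shock 1 and 2 had all of their 1.66 and 1.48 FPKM on annotated transcripts, while annotated transcripts held 45.9%, 9.55% and 0% in the controls and 42.4% in heat shock 3. For GADD45A the 3 controls and heat shock 1 had 100% on annotated transcripts, but heat shock 2 had 0%, its 35.0 FPKM being on 1 assembled transcript. Counting annotated transcripts alone therefore turned GADD45A to -1.18 and MDM2 to -0.095 on the log2 scale, while BBC3 came to 2.39 ± 0.84 (SE, n = 3 and 3; limma adjusted p 0.801), with all 3 heat shock libraries above all controls and an unadjusted p under 0.05. Of the 7199 genes tested in this way, 244 had this order and 252 passed an unadjusted p under 0.05 as higher. Annotated BBC3 was 0, 0 and 0.667 FPKM in the controls and 16.9, 5.96 and 0.912 FPKM in the heat shock libraries. In controls 1 and 2 all BBC3 was on assembled transcripts. CDKN1A and BTG2 fell under the minimum level with annotated transcripts alone and were not tested. Over the 9 members, the median share on annotated transcripts was between 12.9% and 45.9% in the controls and between 20.4% and 87.9% in the heat shock libraries. The library kit is not stated to keep strand. On the opposite strand, lncRNA DINOL overlaps CDKN1A, an unnamed lncRNA overlaps SESN1, and an unnamed lncRNA and the 3′ end of the carboxypeptidase M gene overlap MDM2, so reads of these cannot be told apart from reads of the members where they overlap.

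The rest of the pathway also held no called gene. Of 21 genes outside the set that are known as direct p53 targets, 16 were tested and 0 were called. At an unadjusted p under 0.05 by limma, 2 were higher and 0 lower, beside 2.06% and 1.64% of all genes. The median difference was 0.43 as deposited and -0.18 with the common factor. The most abundant of these targets were CCNG1 (cyclin G1), RPS27L and TRIAP1. CCNG1 had 32.7, 14.1 and 29.7 FPKM in the controls and 75.2, 95.5 and 17.4 FPKM in the heat shock libraries, a difference of 1.04 ± 0.92 (log2, SE, n = 3 and 3). With the common factor its difference was 0.18 ± 0.12, and the 3 heat shock libraries, at 35.3, 41.3 and 35.7, lay above the controls, at 34.9, 32.5 and 31.0. On that scale 1.77% of all genes had this order. RPS27L and TRIAP1 were also highest in heat shock 1 and 2, with differences of 0.82 and 0.73 on the log2 scale as deposited and -0.033 and -0.088 with the common factor.

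Of 11 relatives and regulators of p53, 9 were tested and 0 were called, with a median of 0.59 as deposited and -0.18 with the common factor. The coactivators CREBBP and EP300, acetyltransferases that p53 recruits, had differences of 0.64 and 0.10 as deposited. CREBBP had 9.36, 3.20 and 8.08 FPKM in the controls and 24.7, 6.92 and 6.37 FPKM in the heat shock libraries, so heat shock 1 alone lay above the controls. COP1, a ubiquitin ligase for p53, had 4.46, 2.21 and 5.30 FPKM in the controls and 12.2, 12.9 and 4.81 FPKM in the heat shock libraries, a difference of 1.09 ± 0.61 as deposited and 0.36 ± 0.27 with the common factor (log2, SE, n = 3 and 3). On the latter scale its 3 heat shock libraries lay above all controls, as in 1.77% of all genes. KAT5 was listed at 0 in all 6 libraries, which in these files can be a failed estimate.

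Of 23 damage sensors and checkpoint genes, 22 were tested and 0 were called in either direction, all 22 were above 0 as deposited, and 5 of 22 were above 0 with the common factor. Their median was 0.57 as deposited and -0.15 with the common factor, beside 0.45 and -0.25 over all genes. The most abundant were PARP1, which marks breaks with poly(ADP-ribose), XRCC6, the Ku70 subunit that holds broken ends, and PRKDC, the kinase that Ku recruits, and their differences were 0.59, 0.81 and 0.011 as deposited. PRKDC had 56.4, 14.2 and 29.4 FPKM in the controls against 22.1, 72.1 and 15.2 FPKM in the heat shock libraries, so its highest and second highest library were in different groups. ATM and ATR, the kinases that start the response and were chosen after their values were seen, had differences of 0.39 and 0.99.

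Relatives of the members outside the set gave a median of 0.42 over 4 tested of 6, and -0.37 with the common factor. BTG3, CDKN1B (p27) and CDKN1C (p57) had differences of 0.54, 0.29 and 0.0034, and CDKN1C had 3.35, 2.38 and 2.56 FPKM in the controls and 2.35, 3.84 and 2.25 FPKM in the heat shock libraries. Other BCL2 family genes, which promote or prevent the step that BAX carries out, gave a median of 0.57 over 9 tested of 12, and -0.26 with the common factor. Among them BAD and BID, which promote apoptosis, had 0.57 and 0.80, and MCL1, which prevents it, had 0.84. With the common factor BAD had -0.26, BID 0.0092 and MCL1 0.048. On that scale the heat shock libraries of BTG3, CDKN1B and BAD lay below all controls, as in 5.21% of all genes. The 12 heat shock genes, of which 11 were tested, stood higher, with a median of 1.20 as deposited and 0.35 with the common factor. At an unadjusted p under 0.05 by limma, 3 of 11 and 5 of 11 were higher, beside 2.06% and 0.697% of all genes. Of the 11, 0 were called. DNAJB1 had the largest difference among them, 3.33 ± 0.83 (log2, SE, n = 3 and 3), and its limma adjusted p was 0.709, so in this design even it was not called.

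**Figure D5:**
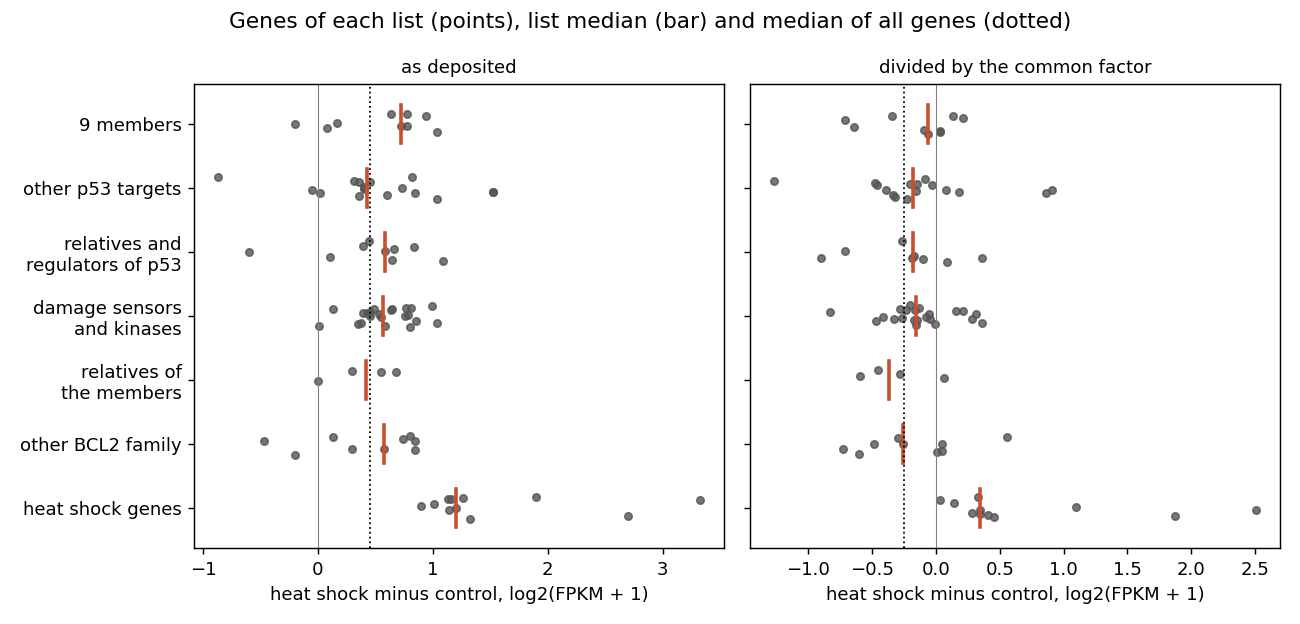
Heat shock minus control on the log2(FPKM + 1) scale (horizontal axes) for each tested gene (points) of the members and 6 other lists, as deposited (left) and divided by the common factor (right), with list medians as red bars and the medians of all tested genes dotted. The members' median is 0.72 on the left and -0.059 on the right, and the heat shock genes are shifted to the right of the other lists on both.

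The series table gives 1 FPKM per group and locus, pooled by the authors, with no replicate values. There the 9 member loci had higher values in heat shock, with heat shock to control ratios between 2.41 for BTG2 and 5.19 for BBC3 and a median of 4.03. Over 12400 named loci with a control value of at least 1 FPKM the median ratio was 3.67 and 87.2% were above 1, and 6 of 9 members were above that median. The authors' pooled values were 11.5 and 55.1 FPKM for GADD45A, 3.46 and 14.4 FPKM for MDM2 and 1.25 and 3.34 FPKM for CDKN1A, control first. The ratio of CDKN1A was thus 2.67 in the pooled table and 0.781 between the mean levels of the libraries. The locus of BAX was joined with DHDH and NUCB1, so its pooled values, 18.1 and 72.7 FPKM, are of 3 genes.

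The genes whose 6 library profile was most like the members' mean on the common factor scale were KIF16B, MBD2 and IL19, with Pearson's r of 0.997, 0.996 and 0.996 over 6 libraries that share these factors. All 3 had low levels, with means between 1.23 and 1.82 FPKM, and were highest in control 2.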

How the data were processed

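Read quality was checked by the authors with FastQC 0.10.1. Trimming used Trimmomatic 0.3.0, alignment to hg19 used TopHat2, and Cufflinks 2.0.2 made 1 assembly per library, from which the deposited FPKM of each transcript came. No scaling between libraries is stated. A series table made with cuffdiff holds the authors' pooled FPKM per group, used here as such, and their fold changes and p-values, which were not used. Here FPKM was summed per gene over annotated transcripts and assembled transcripts grouped with them. In groups of several genes, genes of at most 200 bases were disregarded, and transcripts left with several genes were counted to none. RefSeq gave symbols for 96.7% of 40803 annotated accessions. Genes whose mean reached 1 FPKM (13074) entered a limma fit (version 3.58.1, R 4.3.3) of log2(FPKM + 1), a scale that understates changes of low genes, with eBayes, a trend and Benjamini-Hochberg adjustment. The fit was tested on simulated data. Groups came from the sample labels. Named genes were the 9 members, the 3 most abundant genes of each other pathway list, any list gene called, the 3 genes most like the members and 3 heat shock genes. 1 further gene of these lists is not reported here. The members and lists were chosen with earlier results of these data known. Alternatives changed the pseudocount, minimum, scaling, trend, adjustment, transcripts counted, replicate block and libraries. FPKM holds no counts, so counting errors cannot be given.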

Additional observations from a re-analysis of the deposited data

How the results depend on the processing

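No tested member was called by limma under any of the 27 alternatives; 3 of 9 members were tested at a minimum of 10 FPKM and 7 of 9 with annotated transcripts alone, and all 9 elsewhere. The genes called among all tested, 3 as reported, were 1 with median-of-ratios scaling, 1 rescaled to TPM, 1 without a trend, 1 with annotated transcripts alone, 0 with no minimum, 0 with the common factor, 480 by unadjusted p, and 0 to 15 without 1 library, the 15 being without heat shock 3. The members' median difference, 0.72 on the log2 scale, was -0.059 with the common factor, 0.090 rescaled to TPM, -0.27 with transcripts weighted by length and the common factor, an alternative chosen after seeing the data, and -0.11 to 1.23 without 1 library. The number of members whose groups did not overlap, 0 as reported, was 1 with median-of-ratios scaling, 1 with annotated transcripts alone, 1 with length weighting and the common factor, and 0 to 6 without 1 library. Among all 13482 genes tested with median-of-ratios scaling, 649 lay apart as higher and 406 as lower. With annotated transcripts alone it was 244 and 51 of 7199 genes. With length weighting and the common factor it was 175 and 706 of 13095. The 6 members were without heat shock 3, where 7390 of 12923 genes lay apart as higher and 1662 as lower.

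Signs of single members changed, all between values that were not called. With the common factor MDM2 was -0.091, BTG2 -0.35, BBC3 -0.059 and SESN2 -0.64 on the log2 scale. With median-of-ratios scaling BTG2 was -0.22 and SESN2 -0.39, and rescaled to TPM BTG2 was -0.29 and SESN2 -0.48. With annotated transcripts alone MDM2 was -0.095 and GADD45A -1.18. With length weighting and the common factor MDM2 was -0.11, BTG2 -0.34, BBC3 -0.28, BAX -0.27, SESN1 -0.17 and SESN2 -0.29. Leaving out each library in turn, as deposited or with the common factor, gave ranges from -1.16 to 0.0062 for CDKN1A, -0.11 to 1.23 for MDM2, -0.20 to 1.33 for GADD45B, -0.84 to 0.18 for BTG2, -0.24 to 1.18 for BBC3, -0.093 to 1.39 for BAX, -0.20 to 1.47 for SESN1 and -0.94 to 0.51 for SESN2. The causes of these changes were not tested.

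Libraries of the same replicate number were not alike in level: correlations of same-numbered deviations over genes were 0.03, -0.33 and -0.38. The highest, 0.44, joined control 2 with heat shock 3, the libraries with the lowest common factors. These correlations therefore cannot show whether same-numbered libraries were handled together. A fit with the replicate block called 16 genes and no member, and with the block and the common factor 0 genes, with a members' median of -0.059 and the single members MDM2 -0.091, BTG2 -0.35, BBC3 -0.059 and SESN2 -0.64. With 3 libraries per group, wide intervals and no read counts, absence of a call does not show that levels were equal.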

Other observations

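Of the other p53 targets, 3 are described here, DDB2, TIGAR and GDF15, and they were chosen after their values were seen. They are not the only ones whose groups did not overlap. FDXR had all heat shock libraries above all controls as deposited, narrowly, at 5.692, 5.06 and 4.38 against 7.21, 12.8 and 5.694 FPKM. With the common factor its groups overlapped. CCNG1 had this order with the common factor, as given above. Of all genes as deposited, 3.75% had all heat shock libraries above all controls and 2.24% below. With the common factor the shares were 1.77% and 5.21%. DDB2, which recognises ultraviolet damage, had 1.90, 2.08 and 1.39 FPKM in the controls and 7.03, 4.38 and 10.6 FPKM in the heat shock libraries, so that all 3 heat shock libraries, heat shock 3 included, were above all controls. Its difference was 1.52 ± 0.50 (log2, SE, n = 3 and 3), with an adjusted p of 0.709 by limma. With the common factor the groups overlapped, at 2.03, 4.79 and 1.46 against 3.30, 1.90 and 21.8, heat shock 3 was far the highest library, and the difference was 0.91 ± 0.83 (log2, SE, n = 3 and 3). TIGAR, which lowers glycolytic flux, had 0.725, 0.425 and 0.712 FPKM against 7.30, 6.73 and 0.544 FPKM, with a difference of 1.52 and heat shock 3 between the controls. With the common factor it had 0.774, 0.980 and 0.745 against 3.43, 2.91 and 1.12, so all 3 heat shock libraries lay above all controls, with a difference of 0.86 ± 0.38 (log2, SE, n = 3 and 3). GDF15, a secreted stress cytokine, had 1.96, 2.07 and 1.66 FPKM against 0.263, 0.993 and 0.581 FPKM, lower in all 3 heat shock libraries, with a difference of -0.87 ± 0.46 as deposited and -1.26 ± 0.45 with the common factor (log2, SE, n = 3 and 3), and limma adjusted p of 0.709 and 0.908.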
